A study of Mus musculus with 13 samples.

Results

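The 10 genes described here encode transcription factors of stratified epithelium, the layered epithelium of the epidermis and its appendages: Trp63, Grhl1, Grhl2, Grhl3, Klf4, Klf5, Ovol1, Sox9, Sox21 and Dlx3. They were listed by gene symbol, and all 10 are among the 15213 genes listed. The libraries came from 10 mammary tumors, taken from 6 females that carry the MMTV-tTA and TetO-Tsg101 transgenes, and from glands of 3 wild-type FVB females, which carry neither. In the tumor mice the MMTV promoter drives the tTA transactivator, which switches on HA-tagged full-length mouse TSG101 together with luciferase. The driver is patchy and luminal in otherwise normal ducts, and its reporter also labels basal cells once TSG101 females develop lesions. The transgenic animals were of the FVB background and of a single founder line. Of the 6 females, 3 gave 1 tumor, 2 gave 2 tumors (tumors 2 and 3, and tumors 5 and 6) and 1 gave 3 tumors (tumors 8 to 10). The age of the sequenced animals and the reproductive stage of the glands are not given in the sources used here, and the glands were whole tissue.

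Stratified epithelium is built from a basal layer of dividing cells whose daughters move outward and mature into a barrier. p63, encoded by Trp63, holds the basal state, Grainyhead-like and Krueppel-like factors switch on barrier and junction genes, and Ovol1 ends proliferation as cells leave the basal layer. Sox9 marks hair follicle stem cells and luminal progenitors of the mammary gland, whereas Sox21 and Dlx3 act in the hair shaft and in the differentiating epidermis. In the mammary gland, p63 is found in the basal myoepithelial layer.

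Levels are given in normalized cpm, which are reads divided by a library size that includes a normalization factor. Tumor libraries held 6176269 to 16835397 reads and gland libraries 11672487 to 23889042, and 3 reads, the most that an observed 0 allows, correspond to between 0.128 and 0.683 normalized cpm. Reads of Rn45s, the ribosomal RNA precursor, took 0.456% to 27.4% of the tumor libraries and 0.296% to 4.35% of the gland libraries. Tsg101 itself stood at 45.6, 53.02 and 60.95 normalized cpm in glands 1 to 3 and at 49.9, 63.4 and 101.3 (lowest, median and highest) in the tumors. It lay above all glands in 6 of 10 tumors and was not called (log2 fold change 0.30 ± 0.20 SE, limma adjusted p = 0.297). Reads of the transgene and of the endogenous gene are not told apart by these values. Milk genes and adipocyte markers were far higher in the glands. Summed over 8 milk genes, the glands held 165000, 190100 and 305300 normalized cpm against 1385 to 76630 in the tumors. In such bulk samples, fewer cells of a type and less RNA per cell cannot be told apart.

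Of the 10 genes, 7 rose in the tumors: Grhl3, Trp63, Klf4, Sox21, Dlx3, Ovol1 and Klf5. A gene was called when its limma adjusted p was below 0.05 and its change larger than 2-fold. Among all 11795 genes tested, 10.2% were called higher and 6.99% were called lower. All 10 genes passed the filter on low values, although Grhl3 and Sox21 were below its limit of 5 normalized cpm in every gland and passed through the tumors. Their median log2 fold change was 1.62, against 0.01 over all genes tested. None fell by this test. At an unadjusted p below 0.05, 1 of them was lower (Sox9) and 8 were higher, against 18.2% and 20% of all genes tested, and edgeR and DESeq2 on recovered reads likewise called 7 higher and 0 lower. Without gland 3, however, 4 were called higher and 1 lower, while 1506 and 1121 of all genes tested were. In 5 of the 10 genes (Trp63, Grhl3, Klf4, Klf5 and Sox21) every tumor lay above every gland, which was the case for 10.7% of all genes tested, and in 0 every tumor lay below every gland (8.53% of all genes tested).

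The scale of a library bears on these values. Without the normalization factors the median over all genes tested moved to 0.33 on the log2 scale and 1864 genes were called higher and 495 lower, and with each library scaled to 14 epithelial markers it moved to −0.40 with 744 higher and 1806 lower, in place of 1204 and 825. On the epithelial scale Grhl3, Trp63, Klf4, Sox21, Dlx3 and Ovol1 were still called higher, Klf5 had a log2 fold change of 0.97 and was no longer called, and Sox9 was called lower. The epithelial markers themselves, among them keratins of simple epithelium and E-cadherin, had a median log2 fold change of 0.15, and 1 of 14 was called higher (Krt7, 231 ± 135 against 19.9 ± 3.80 normalized cpm, SD). Gland 3 had the lowest sum of the epithelial markers (1857 normalized cpm, against 2698 and 3847 in glands 1 and 2), the highest sum of adipocyte markers (12870, against 5077 and 5699), and was the lowest gland for 8 of the 10 genes. Its part in the results was measured by leaving it out, and values without it are given where a call or a direction changed.

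**Figure D1:**
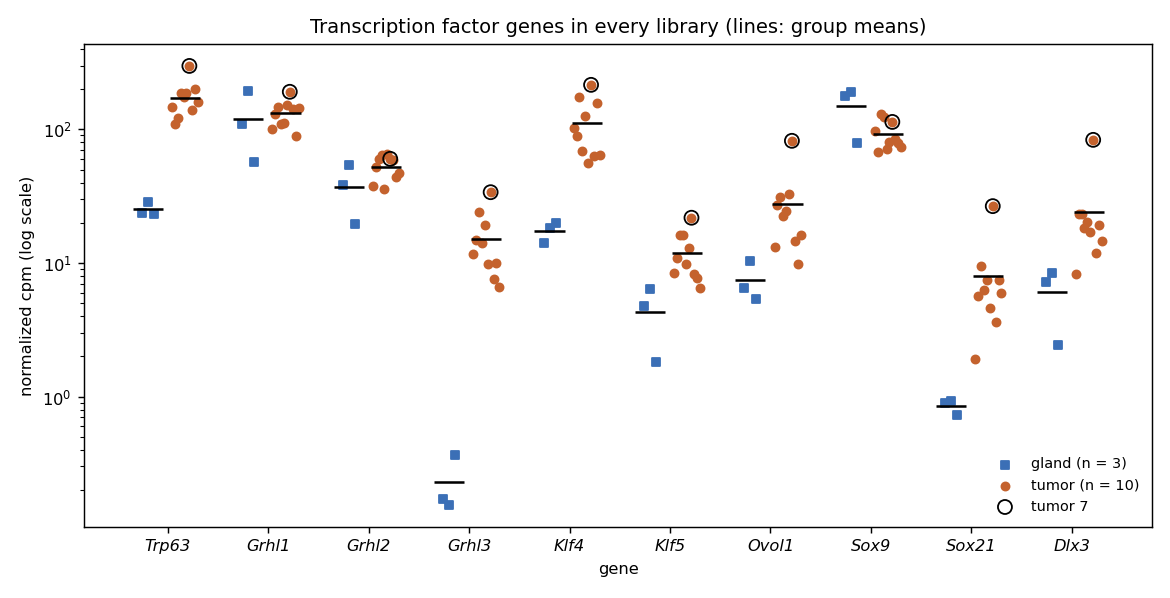
Level of each of the 10 genes in normalized cpm (vertical log axis) in the 3 glands (squares) and the 10 tumors (circles), with lines at the group means and tumor 7 ringed. Trp63, Grhl3, Klf4, Klf5 and Sox21 do not overlap between the groups, whereas the 3 gland values of Grhl1 span those of all tumors.

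Trp63 (Entrez 22061) encodes p63, the regulator of the basal layer, and lies on the plus strand of chromosome 16 (chr16:25683763-25892088, GRCm38.p6). Its level was 23.8, 28.6 and 23.2 normalized cpm in glands 1, 2 and 3. In the tumors it ranged from 109.5 in tumor 2 over a median of 167.1 to 298.4 in tumor 7. The lowest tumor thus stood well above the highest gland, and the glands lay close together. The difference was a log2 fold change of 2.68 ± 0.24 (SE, limma adjusted p = 1.82e-06, 10 of 10 tumors above all glands). Under all 24 alternatives it was called, with log2 fold changes between 2.27 and 3.00. RefSeq curates 8 transcripts of Trp63, and the values per gene do not separate the long (TA) from the short (ΔN) isoforms.

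The 3 grainyhead-like genes, whose products bind the same short DNA element and act on epithelial junctions and barrier formation, comprise Grhl3, which rose, and Grhl1 and Grhl2, which were not called. Grhl3 (Entrez 230824, chr4:135541887-135573632, minus strand), needed for closure of the neural tube and of wounds, was nearly without reads in the glands. It stood at 0.171, 0.155 and 0.366 normalized cpm there, from 4, 3 and 3 reads. The tumors ranged from 6.67 in tumor 10 over a median of 12.9 to 33.9 in tumor 7, so that every tumor exceeded every gland. The log2 fold change on the log2(value + 1) scale was 3.57 ± 0.38 (SE, limma adjusted p = 8.31e-06), a scale that understates changes of low genes. Pooled over libraries, 1587 tumor reads and 10 gland reads gave a ratio of 77.8 after scaling, with a 95% exact interval of 42.2 to 163 that covers counting error only. DESeq2 on the reads gave a log2 fold change of 6.21.

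Grhl1 (Entrez 195733, chr12:24572232-24617391, plus strand), an activator of desmosomal cadherins, was already abundant in the glands, at 109, 195 and 56.7 normalized cpm. The tumors spanned 89.9 to 191.1 with a median of 136.4, entirely within the range of the glands. The log2 fold change was 0.28 ± 0.30 (SE, limma adjusted p = 0.536, 95% interval −0.36 to 0.91), and it took the opposite sign on the epithelial scale (−0.15) and without gland 3 (−0.18). Grhl2 (Entrez 252973, chr15:37232821-37363569, plus strand), a regulator of E-cadherin and claudin genes in simple epithelia too, stood at 38.1, 53.8 and 19.5 normalized cpm in the glands. In the tumors it ranged from 35.9 in tumor 5 over a median of 55.5 to 65.5 in tumor 6, and the groups overlapped, with 5 of 10 tumors above all glands. Its log2 fold change was 0.58 ± 0.26 (SE, limma adjusted p = 0.118, 95% interval 0.02 to 1.13), and the value was 0.18 without gland 3, 0.16 on the epithelial scale and 0.89 without gland 2 (adjusted p = 0.0309), each under a 2-fold change.

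The table of RefSeq promoter windows (GRCm38.p6) used here holds 4 of the 10 genes, namely Grhl1 (at 2 starts), Grhl3, Klf4 and Sox21. Trp63, Grhl2, Klf5, Ovol1, Sox9 and Dlx3 were not matched in it. The 250 bases before the start were searched on both strands for CCGGTT (grainyhead), CACCC and GGGCGG (Krueppel-like), ACAAAG (SRY-box), TAATTG (homeobox) and the p53-family arrangement of CATG, 6 bases and CATG. Those motifs occurred in 5.62%, 52.0%, 32.7%, 16.5%, 7.17% and 0.490% of all 32851 windows, in that order. The windows of Grhl3 and Grhl1, the paralogs with the most and the least difference between tumors and glands, are shown 5′ to 3′ on the strand of the gene with Krueppel-like matches of either strand in capitals; they lie at chr4:135573633-135573882 (minus strand) and, for the first start of Grhl1, at chr12:24572037-24572286 (plus strand).
Grhl3: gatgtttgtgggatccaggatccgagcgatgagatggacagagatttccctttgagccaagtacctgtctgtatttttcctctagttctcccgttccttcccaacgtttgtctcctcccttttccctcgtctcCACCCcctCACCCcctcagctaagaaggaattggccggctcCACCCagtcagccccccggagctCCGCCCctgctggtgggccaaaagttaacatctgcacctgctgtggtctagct
Grhl1: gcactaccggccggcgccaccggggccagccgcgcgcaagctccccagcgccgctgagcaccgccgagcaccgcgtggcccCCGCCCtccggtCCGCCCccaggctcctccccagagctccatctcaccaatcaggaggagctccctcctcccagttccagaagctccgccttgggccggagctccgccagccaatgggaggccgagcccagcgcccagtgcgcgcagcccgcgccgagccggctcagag
The Grhl3 window held 3 CACCC matches, 117, 109 and 76 bases before the start, and 1 GGGCGG match at 53 bases. The first Grhl1 window held 2 GGGCGG matches, at 169 and 157 bases, and its second window 2 CACCC matches, at 81 and 29 bases. GC content was 56.0% for Grhl3 and 75.6% for the first Grhl1 window, against a median of 52.4% over all windows. A match of this kind is a description of the letters and not of binding.

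Both Krueppel-like genes rose. Klf4 (Entrez 16600, chr4:55527137-55532475, minus strand), needed for the skin barrier, stood at 14.2, 18.1 and 19.99 normalized cpm in the glands. The tumors ranged from 56.0 in tumor 6 over a median of 96.0 to 215.4 in tumor 7, without overlap. Klf4 had a log2 fold change of 2.48 ± 0.37 (SE, limma adjusted p = 0.000175), and the gene was called under all 24 alternatives. Its promoter window is shown because it is dense in Krueppel-like GC boxes; it lies at chr4:55532476-55532725 on the minus strand, with matches in capitals.
Klf4: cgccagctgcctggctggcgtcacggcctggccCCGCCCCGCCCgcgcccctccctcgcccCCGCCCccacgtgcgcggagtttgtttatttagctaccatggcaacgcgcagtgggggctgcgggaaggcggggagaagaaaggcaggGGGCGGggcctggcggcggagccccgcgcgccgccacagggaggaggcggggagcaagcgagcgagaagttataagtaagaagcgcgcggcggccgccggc
It held 4 GGGCGG matches, 217, 212 and 189 bases before the start and a last one nearer to it, of which the first pair share 1 base, at a GC content of 74.0%. The window of Sox21 held none of the motifs searched.

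Klf5 (Entrez 12224, chr14:99298691-99313412, plus strand), a factor of proliferating basal and luminal epithelium, was much lower. It stood at 4.80, 6.35 and 1.83 normalized cpm in the glands and ranged from 6.52 in tumor 10 over a median of 10.4 to 21.8 in tumor 7. The groups did not overlap, but the lowest tumor and the highest gland were separated by little. This gave a log2 fold change of 1.30 ± 0.34 (SE, limma adjusted p = 0.0108). Without gland 3, the lowest library for this gene, it was 0.89 (adjusted p = 0.0669) and the call was lost.

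Ovol1 (Entrez 18426, chr19:5549137-5560575, minus strand), a zinc finger repressor of Myc and of mesenchymal genes, stood at 6.47, 10.4 and 5.36 normalized cpm in the glands. The tumors ranged from 9.79 in tumor 9 over a median of 23.5 to 82.1 in tumor 7, and 9 of 10 exceeded all glands, tumor 9 falling just below gland 2. The log2 fold change was 1.56 ± 0.46 (SE, limma adjusted p = 0.0200). The call was lost without gland 1 (1.495, adjusted p = 0.0833) and without gland 3 (1.38, adjusted p = 0.0646). The locus overlaps Ap5b1, whose reads could not be told apart at shared positions, and that gene stood at 5.30 ± 2.26 normalized cpm in the tumors and 10.6 ± 5.08 (SD) in the glands.

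Of the SRY-box genes, Sox21 rose and Sox9 was not called. Sox9 (Entrez 20682, chr11:112782210-112787757, plus strand) stood at 178, 191 and 79.7 normalized cpm in the glands. The tumors ranged from 67.5 in tumor 2 over a median of 82.8 to 129.4 in tumor 3, all below glands 1 and 2, and 4 of 10 below gland 3. The log2 fold change was −0.63 ± 0.27 (SE, limma adjusted p = 0.0950, 95% interval −1.20 to −0.06). Without gland 3 it was −1.03 (adjusted p = 0.00614) and on the epithelial scale −1.05 (adjusted p = 0.00257), both past the threshold.

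Sox21 (Entrez 223227, chr14:118233233-118237030, minus strand), a factor of the hair cuticle, stood at 0.899, 0.929 and 0.731 normalized cpm in the glands. The tumors ranged from 1.92 in tumor 1 over a median of 6.11 to 26.6 in tumor 7, and every tumor exceeded every gland. Its log2 fold change was 2.01 ± 0.46 (SE, limma adjusted p = 0.00438). In pooled reads, 772 from tumors and 45 from glands gave a scaled ratio of 8.41, with a 95% exact interval of 6.23 to 11.6 for counting error only, and the log2 fold change by DESeq2 was 3.22.

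Dlx3 (Entrez 13393, chr11:95120117-95125296, plus strand), a homeobox factor of hair, tooth and terminal epidermal differentiation, stood at 7.24, 8.47 and 2.44 normalized cpm in the glands. The tumors ranged from 8.22 in tumor 1 over a median of 18.6 to 83.5 in tumor 7, with 9 of 10 above all glands and tumor 1 just below gland 2. Dlx3 had a log2 fold change of 1.68 ± 0.49 (SE, limma adjusted p = 0.0189). The call was lost without gland 3 (1.22, adjusted p = 0.0936) and when the tumors of a mouse were averaged (1.78, adjusted p = 0.0545).

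**Figure D2:**
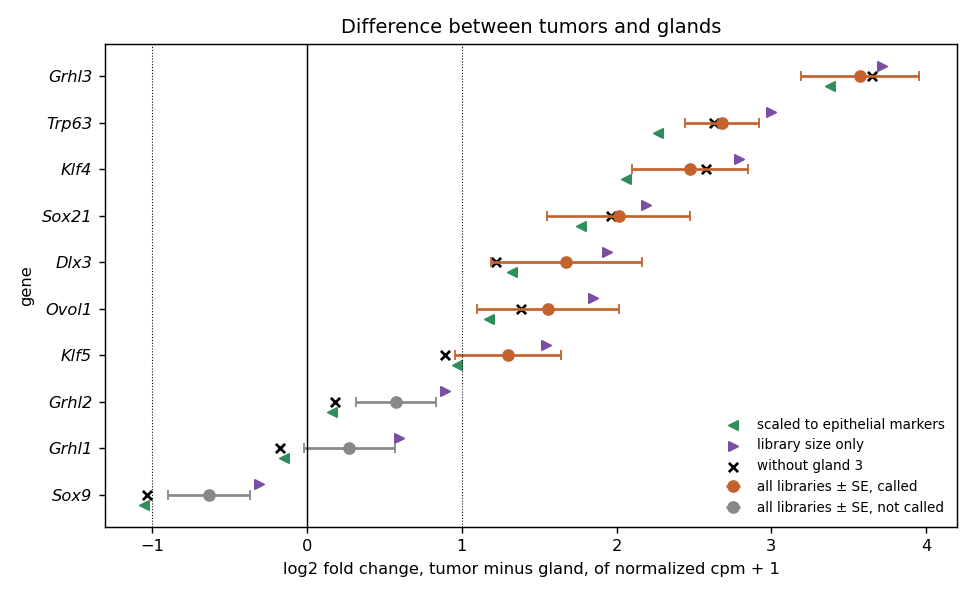
Log2 fold change of normalized cpm + 1, tumor minus gland, for each of the 10 genes (circles with SE bars, n = 10 tumors and 3 glands), with the estimate on the epithelial scale, with library size only and without gland 3, and dotted lines at a 2-fold change. All called genes but Klf5 stay beyond the 2-fold line in these 4 estimates, whereas Grhl1 crosses 0.

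Levels of different genes were compared per kilobase of exon. The length is the union of all exons of a gene, which can exceed that of any single transcript. For Trp63 it is 8391 bases over 8 curated transcripts, so its level and its place in the order may be understated. In the tumors Grhl1 (37.8 ± 8.56 normalized cpm per kilobase, SD) and Klf4 (36.9 ± 18.1) were highest, and Grhl1 exceeded Klf4 in 5 of 10 tumors. Sox9 (22.3 ± 5.48) and Trp63 (20.6 ± 6.35) followed, in the order given in 5 of 10 tumors. Trp63 exceeded Grhl2 (9.86 ± 2.02) in 10 of 10 tumors. Grhl2 exceeded Ovol1 (9.23 ± 6.98) in 8 of 10 tumors, and Ovol1 exceeded Dlx3 (9.19 ± 8.23) in 7 of 10, where tumor 7 alone reached 27.6 for Ovol1 and 32.0 for Dlx3. Grhl3 followed at 5.46 ± 3.03, and Klf5 (2.28 ± 0.94) and Sox21 (2.09 ± 1.82) were lowest. In the glands Sox9 (36.2 ± 14.7) and Grhl1 (34.4 ± 19.96) were highest, and Grhl3 was lowest at 0.083 ± 0.042. Klf4 (5.76 ± 0.97) and Trp63 (3.00 ± 0.35) stood below Sox9 and Grhl1 in the glands.

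**Figure D3:**
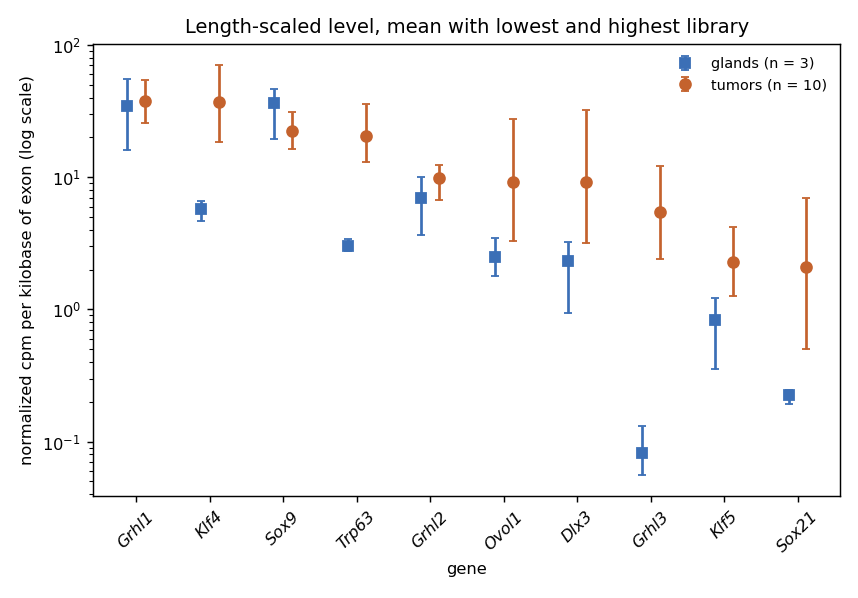
Mean level of each gene in normalized cpm per kilobase of exon (vertical log axis), with bars from the lowest to the highest library, for the 3 glands (squares) and the 10 tumors (circles). The widest gap between the groups is that of Grhl3, at 0.083 in the glands and 5.46 in the tumors.

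Ratios of 2 of the genes within a library do not depend on its scale, apart from the 1 added to each value, which matters for low genes, and 5 were compared with a two-sided exact permutation test over 286 arrangements, whose smallest possible p is 0.0035. The log2 ratio of Grhl3 to Grhl2 was −1.85 ± 0.72 (SD) in the 10 tumors and −4.85 ± 0.85 in the 3 glands (difference 2.99, exact p = 0.0035, adjusted p = 0.00874, 10 of 10 tumors above all glands). That of Sox21 to Sox9 was −3.60 ± 0.80 against −6.25 ± 0.61 (difference 2.64, exact p = 0.0035, adjusted p = 0.00874, 10 of 10 tumors). Grhl3 in the glands was below 0.5 normalized cpm, so that its gland ratios are set almost wholly by the added 1 and by Grhl2, and both Grhl3 and Sox21 passed the filter through the tumors. These 2 ratios are therefore no evidence beyond the levels of Grhl3 and Sox21 themselves. Klf4 to Klf5 was 3.07 ± 0.66 against 1.89 ± 0.87 (difference 1.18, exact p = 0.024, adjusted p = 0.0408, 7 of 10 tumors above all glands), and this call was lost without any of tumors 1, 2, 3, 5, 7 and 10 or glands 1 and 2, where adjusted p reached 0.208. Grhl3 to Trp63 (difference 0.89, exact p = 0.052, adjusted p = 0.0656) and Grhl1 to Grhl2 (−0.30, exact p = 0.11, adjusted p = 0.112) did not pass. The Grhl3 to Trp63 ratio has the same limit in the glands, so that its size follows the constant added (0.89 with 1, 1.57 with 0.5, adjusted p = 0.00583), and its passing there or without tumor 9 (0.96, adjusted p = 0.0398) is no evidence of a difference between these genes.

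**Figure D4:**
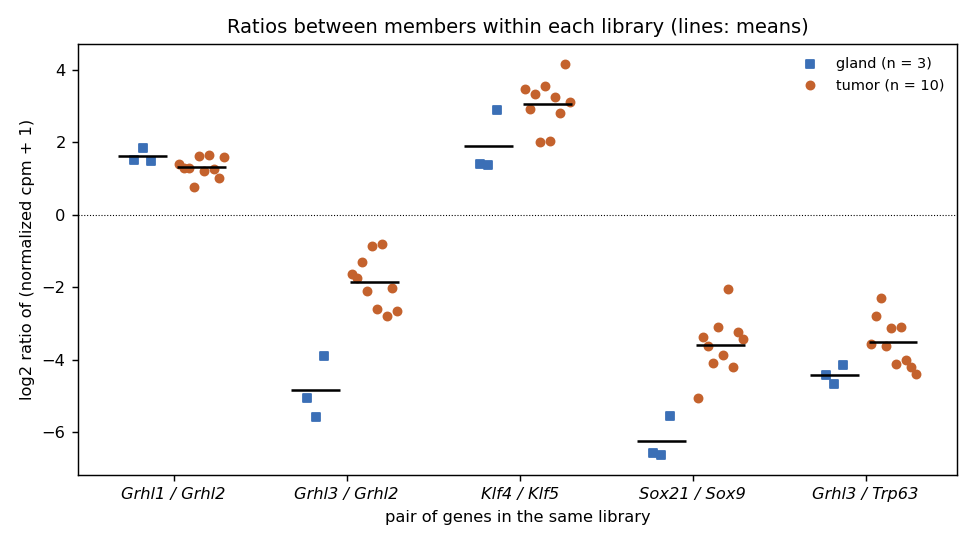
Log2 ratio of the values plus 1 of 2 genes in the same library (vertical axis) for 5 pairs, with the 3 glands as squares, the 10 tumors as circles and lines at the means. Grhl3 to Grhl2 and Sox21 to Sox9 do not overlap between the groups.

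Tumor 7, the sole tumor of its mouse, stood apart from the other tumors. It was highest for 8 of the 10 genes and among the highest 3 for all 10, with a mean log2 deviation of 1.09 from the tumor means. The share of all genes tested for which tumor 7 was highest is not given here, so this count is not shown to be particular to these genes. Tumor 3 came next, with a mean rank of 3.1, and tumors 1, 8 and 10 were lowest, with mean ranks of 7.6, 7.5 and 7.4. Tumor 7 also had the highest sums of p63 target genes (7466 normalized cpm, against at most 4293 in the other tumors), late epidermal differentiation genes (3757, at most 1695), hair follicle markers (3805, at most 1675) and basal and myoepithelial markers (4368, at most 2658). It was highest as well for fibroblast (1333, at most 1263) and endothelial markers (144, at most 124). Its luminal marker sum was the lowest (705), and its epithelial marker sum was 2999, within the range of 2612 to 3904. The p63 target list and the basal and myoepithelial list share Krt5, Krt14, Itga6 and Itgb4, so their sums are not separate traits. The next highest hair follicle sum, 1675, was that of tumor 9, whose mean rank over the 10 genes was 6.5. The part of these sums in the levels of the 10 genes was not tested.

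**Figure D5:**
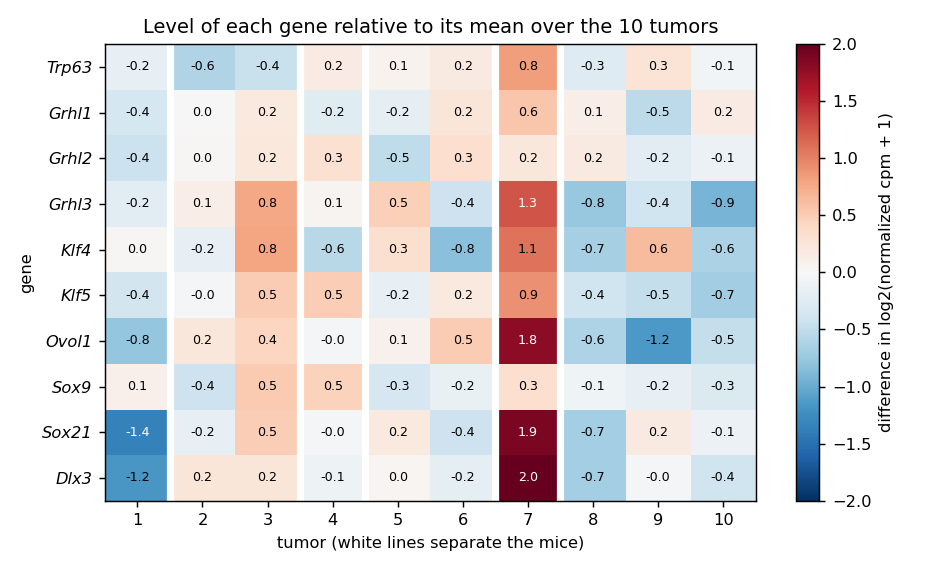
Difference of each gene's log2(normalized cpm + 1) from its mean over the 10 tumors (color), with the tumors in columns and white lines between mice. Tumor 7 is above the mean for every gene, and the values of Ovol1, Sox21 and Dlx3 stand out there.

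The 45 pairs of the 10 genes were correlated over the means of 6 mice, with a two-sided exact permutation p over 720 arrangements. All 45 had a Pearson r above 0 (median 0.71), 12 passed an unadjusted p of 0.05 and 0 passed after Benjamini-Hochberg adjustment (smallest adjusted p = 0.0625). Over the 10 tumors as separate samples, 44 of 45 pairs had r above 0 (median 0.52), and over 9 tumors without tumor 7, 30 of 45 (median 0.21). Sox21 and Dlx3 had the highest r (0.99, exact p = 0.00278, adjusted p = 0.0625; Spearman rho 0.94, exact p = 0.0167, adjusted p = 0.107), which was 0.96 without the 2 mice farthest from the median and 0.90 over 9 tumors without tumor 7. Ovol1 and Dlx3 followed (r = 0.96, exact p = 0.00139, adjusted p = 0.0625; rho 1.00, exact p = 0.00278, adjusted p = 0.107; r = 0.86 without the 2 farthest mice, and 0.57 over 9 tumors without tumor 7). Grhl1 and Sox21 had an r of 0.94 (exact p = 0.0111, adjusted p = 0.0714; rho 0.83, exact p = 0.0583, adjusted p = 0.239) that fell to 0.43 without the 2 farthest mice, so that it rests on them. Tumors of the same mouse (5 pairs) were closer on average than tumors of different mice (40 pairs) for 7 of the 10 genes, and not for Klf4 (mean absolute log2 difference 0.94 against 0.80), Grhl1 (0.40 against 0.38) and Grhl2 (0.37 against 0.36). Tumor 7 enters only the pairs of different mice. Without it (31 pairs) tumors of the same mouse were closer for 8 of the 10 genes, as Grhl2 changed side (0.37 against 0.38). For Dlx3 the values were then 0.31 against 0.56 and for Ovol1 0.39 against 0.74, where those of different mice had been 0.94 and 1.02 with tumor 7. For Sox21 they were 0.60 against 0.64, where that of different mice had been 0.96. No test was made.

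Outside the 10 genes, the level most like that of Trp63 over the 10 tumors was that of Dsc3, a desmosomal cadherin of basal layers (r = 0.92, rho = 0.90, 0.85 without tumor 7), followed by Ank (r = 0.90) and Ppp1r14c (r = 0.90). The mean of the 10 genes was most like Tgm5, a transglutaminase of the cornified envelope (r = 0.98), Ggt6 (0.97) and Htra1 (0.97), the last of which was itself lower in the tumors (log2 fold change −1.36, limma adjusted p = 0.0118). These are descriptions across 10 tumors that share mice and, as above, a single extreme tumor. The genes were picked for the highest r among all genes tested, a search that yields high values by itself, and no test was made.

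Other genes of the same programs were counted in lists. Because genes can pass the filter through the tumors alone, counts without the filter are given too where they differ, and there 10.5% of 15213 genes were called higher and 10.1% lower. Of 25 other factors of stratified epithelium, 18 were tested, 6 were higher and 2 lower, and without the filter 9 and 3, with a median log2 fold change of 0.84 (0.01 over all genes). Prdm1, a factor of terminal epidermal and sebaceous differentiation, rose from 3.73 ± 1.46 to 27.0 ± 13.5 normalized cpm (SD), and Zfp750, which acts downstream of p63, from 16.8 ± 8.31 to 62.4 ± 16.9. Cebpa fell from 212 ± 64.2 to 63.5 ± 22.04 and Elf5, the factor of secretory luminal cells, from 947 ± 297 to 345 ± 234. On the epithelial scale 3 of these factors were higher and 3 lower. Of 36 paralogs of the 10 genes, 32 were listed and 17 tested, of which 3 were higher and 3 lower (6 and 5 without the filter, median −0.09; 1 and 7 on the epithelial scale). Trp73, the p63 paralog, rose from 1.37 ± 0.84 to 28.1 ± 13.4 normalized cpm and Sox13 from 27.1 ± 13.3 to 65.6 ± 24.03, whereas Klf2, of endothelial and lymphoid cells, fell from 43.2 ± 23.4 to 7.64 ± 2.75 and Klf15 from 28.3 ± 5.14 to 10.1 ± 6.81.

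Of 22 genes known as p63 targets, 20 were tested, 15 were higher and 1 lower (15 and 2 without the filter, median 1.75; 13 and 2 on the epithelial scale). The list does not separate genes that p63 activates from genes that it represses, so these counts are no measure of its activity. Fgfr3 rose from 2.72 ± 1.24 to 85.7 ± 39.5 normalized cpm and Sfn, the 14-3-3 sigma gene, from 9.67 ± 2.98 to 208 ± 171, whereas Itga6, the alpha-6 integrin of the basal layer, fell from 279 ± 97.9 to 127 ± 50.4. Of 16 grainyhead targets, 15 were tested and 3 were higher (3 without the filter, median 0.48), and on the epithelial scale 2 were higher with a median of 0.14, although 7 of the 16 are themselves among the 14 markers that set this scale, which draws their values toward 0. Cldn4 rose from 59.1 ± 6.97 to 186 ± 55.2, and Dsg1a stood at 0.0172 ± 0.0298 in the glands and 36.0 ± 33.5 in the tumors. Of 20 late epidermal differentiation genes listed, 16 were called higher without the filter, with a median of 3.03, or 2.76 with the 9 genes at 0 reads in every gland set to a floor of 3 reads per gland. The filter left 12 of them, most through the tumors alone, and 11 of these were called. Sprr1a reached 268 ± 246 and Krtdap 270 ± 204 normalized cpm in the tumors. Of 13 hair follicle markers, 9 were called higher without the filter, and 7 passed it, most through the tumors alone, and were called. The sum of all 13 was between 8.69 and 14.1 normalized cpm in the glands and between 124 and 3805 in the tumors, and 8 of them, Krt73 included, were at 0 reads in all glands. Tchh, the trichohyalin gene of the inner root sheath, rose from 9.48 ± 3.25 to 513 ± 631.

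Of the basal and myoepithelial markers, 4 of 9 tested rose and 5 fell (4 and 6 of 10 without the filter). The keratins Krt5 (79.4 ± 46.6 to 561 ± 314 normalized cpm) and Krt17 (10.1 ± 4.69 to 459 ± 341) were among those that rose, while the contractile genes Myh11 (273 ± 193 to 5.44 ± 2.60) and Oxtr, the oxytocin receptor (165 ± 88.3 to 5.79 ± 2.85), fell. Among the genes of epithelial-mesenchymal transition factors, which Ovol1 and Grhl2 are known to oppose, 3 of 7 were tested and 1 of 3 was called, Zeb1, which fell from 24.1 ± 5.57 to 5.87 ± 1.88. Snai2 had a log2 fold change of 0.69 and was not called (limma adjusted p = 0.0792, 8 of 10 tumors above all glands), and the median of all 7 was −0.87. Without the filter 2 of the 7 were lower, Twist1 (log2 fold change −1.85) besides Zeb1. Of the other lists, 4 of 8 fibroblast and 7 of 8 endothelial markers tested fell, as did all 8 milk genes and 1 of 7 luminal markers tested (Elf5). All 4 adipocyte markers tested fell (11 of 11 without the filter), as did both lymphocyte markers tested (8 of 10 without it). Of 7 sebaceous gland markers listed, 1 was tested and fell (Fads2), and without the filter 4 were lower and 1 higher (Far2, log2 fold change 1.07, 10 of 10 tumors above all glands). The sum of lymphocyte markers was 589 and 595 normalized cpm in glands 1 and 3 but 29.1 in gland 2, within the tumor range of 15.9 to 146, and Lck was below all glands in 4 of 10 tumors. Higher were 1 of 7 macrophage (Cd68) and 1 of 4 chondrocyte markers (Col2a1), and of 6 listed skeletal muscle markers 0 were tested. Tumor 4 held 2104 normalized cpm of skeletal muscle markers, and tumor 10 held 372, against a median of 3.74 over the tumors. The part of these cell types in the levels of the 10 genes was not tested.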

How the data were processed

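Total RNA of flash-frozen tumors and glands was sequenced (75 bp paired-end), mapped to mm10 with Rsubread and counted per gene with featureCounts by the authors, who normalized with edgeR. The deposited values are a signal, reads divided by a normalized library size (normalized cpm). All values were whole multiples of 1 read (100% within a tolerance of 0.1), from which reads were recovered. The strand setting is not given in the sources used here, so reads of antisense partners could not be told apart. Both a core facility and a company are named for sequencing, without a library, so no batch could be assigned. Genes at 5 or less in most of the libraries were left out (3418), and 11795 were tested with limma 3.58.1 (trend) in R 4.3.3 on log2(value + 1), two-sided, with condition only, over all 13 libraries. A gene was called at FDR below 0.05 and a change of more than 2-fold. edgeR 4.0.16 and DESeq2 1.42.0 were run on the recovered reads. The 10 tumors were treated as separate samples although some share a mouse, so p-values measure the spread between these samples. No pair of libraries agreed within sampling noise (lowest chi-square per gene 20.9). The genes and lists were chosen with earlier results of these data known. In each list, the called genes named were taken from the 2 that rose most and the 2 that fell most, and 3 genes most like Trp63 and the mean of the 10 genes. Snai2, Twist1 and Far2 were named after their values were seen. Coordinates and promoters are RefSeq GRCm38.p6 (15106 IDs matched), and exon lengths are the union of GENCODE vM21 exons. The limma fit was checked on simulated counts of 15213 genes, where 200 of 200 genes changed by 2 on the log2 scale were recovered with 9 false calls. The changed genes were drawn from genes well expressed in the glands, and the libraries were simulated as independent with a single dispersion. The check therefore does not cover genes low in the glands, such as Grhl3 and Sox21, smaller changes, or tumors that share a mouse.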

Additional observations from a re-analysis of the deposited data

Results flagged for a closer look

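In 15 groups of tumor values checked for a single library far from the others, 4 were flagged, all by tumor 7. Chance flags about 1 in 20 groups, but these genes vary together in the same library and are not independent groups. For Trp63, tumor 7 stood at 298.4 normalized cpm against 201.0 in the next highest tumor (gap over range 0.516). Ovol1 stood at 82.1 against 33.0 (gap over range 0.679), Sox21 at 26.6 against 9.55 (0.691) and Dlx3 at 83.5 against 23.4 (0.798). These are normalized cpm; on the log2 scale of the tests the gaps over range were 0.395, 0.437, 0.428 and 0.561 in the same order, and Dlx3 alone remained past the limit. Without tumor 7 these 4 genes were still called higher in the tumors, with log2 fold changes of 2.59 for Trp63, 1.36 for Ovol1, 1.80 for Sox21 and 1.45 for Dlx3.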

How the results depend on the processing

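Across 24 alternatives for each of the 10 genes, 226 log2 fold changes kept their direction and side of the threshold, 10 lost their call, 2 gained it and 2 changed sign, both for Grhl1 (−0.15 on the epithelial scale, and −0.18 without gland 3 to 0.71 without gland 2 with each library left out). The number of the genes called higher, 7 as reported, was 4 to 7 when each library was left out in turn (4 without gland 3) and 3 with the replicate block, in which Klf5, Ovol1, Sox21 and Dlx3 lost their call (log2 fold changes 1.34, 1.52, 1.67 and 1.45, adjusted p 0.270, 0.120, 0.164 and 0.286). The number called lower was 0 to 1 with each library left out (Sox9, without gland 3) and 1 on the epithelial scale. Over all genes, 1864 were higher and 495 lower with library size only, 744 and 1806 on the epithelial scale, 362 and 182 with the replicate block, and 1538 were lower with no filter. Without gland 3 the calls over all genes rose to 1506 higher and 1121 lower, from 1204 and 825, while those of the 10 genes fell to 4 higher and 1 lower. Replicate numbers 1 to 3 join libraries of different mice and did not deviate together (r = −0.579, 0.0447 and −0.664), so they share only a number. Leaving each library out gave log2 ratios of Klf4 to Klf5 of 0.93 to 1.68 and of Grhl3 to Trp63 of 0.75 to 1.02, and with 0.5 added the latter was 1.57. Over the 10 tumors, 9 of 45 pairs passed, against 0 over mice. Without the 2 tumors with most Rn45s reads (27.4% and 9.32%), chosen after seeing the data, 7 genes were higher and 0 lower. The cause of these changes was not tested. With 3 glands, the spread of the control group is known poorly, and Grhl3 rests there on 3 to 4 reads a library.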
